A study of Mus musculus with 10 samples.

Results

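Hexokinases and phosphofructokinases carry out the early, committing steps of glycolysis, and most of these steps are shared among enzymes made from separate genes. The 10 genes described here were picked by symbol, as enzymes of these steps, with earlier results of these data known: 3 hexokinase genes (Hk1, Hk2 and Hkdc1), the phosphoglucose isomerase gene Gpi1, the 3 genes of phosphofructokinase 1 (Pfkl, Pfkm and Pfkp) and 3 of the genes of the bifunctional PFKFB enzymes (Pfkfb2, Pfkfb3 and Pfkfb4). All 10 were found among the 39017 genes of the count table, each on a single row, and all 10 were among the 15922 genes with enough counts to be tested.

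The libraries were made from polyadenylated RNA of the CD45-negative fraction of mouse lung tumours, that is, of cells left after magnetic removal of immune cells. The 5 control libraries came from KP mice (K-rasLSL-G12D/WT; p53Fl/Fl) and the 5 Glut1-KO-labelled libraries from KPG1 mice, which also carry Glut1Fl/Fl, floxed copies of the glucose transporter gene Slc2a1. All mice had a C57BL/6 background and received Cre through the trachea in an Ad5CC10-Cre adenovirus, whose promoter limits Cre to cells that make the club cell protein CC10, and tumours were cut out 20 weeks and 1 day later. Controls were labelled heterozygous fl/wt, although the design text calls them Glut1-WT and the study's methods allow both, and no label states an age. All 5 controls were male, whereas replicates 1 to 3 of the Glut1-KO-labelled libraries were female and replicates 4 and 5 male. Sex and genotype can therefore not be fully told apart. A second number in the deposited names is shared by control replicates 1, 2 and 5, by control replicates 3 and 4 and by Glut1-KO replicates 4 and 5. If that number marks a mouse, which no label says, these libraries are not independent, and p-values then measure only the spread between libraries.

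As background, glucose that enters a cell is phosphorylated by a hexokinase, which traps it, and phosphoglucose isomerase turns the product into fructose 6-phosphate. Phosphofructokinase 1 then adds another phosphate in the step that commits the sugar to glycolysis. Its strongest activator is fructose 2,6-bisphosphate, a signal molecule that the PFKFB enzymes both make, with a kinase domain, and remove, with a phosphatase domain. Hk2, Pfkp, Pfkfb3 and Pfkfb4 are widely described as raised in tumours and under low oxygen, where the transcription factor HIF-1 binds short elements with the core ACGTG or GCGTG.

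Each library held between 35.3 and 49.8 M counts, and control replicate 2 was the deepest. Slc2a1, the floxed gene, had 118, 86.7, 92.6, 103 and 73.2 counts per M after TMM scaling (CPM) in control replicates 1 to 5, and 60.3, 42.5, 34.6, 92.4 and 103 CPM in Glut1-KO replicates 1 to 5. The 3 female libraries were below every control and both male ones lay inside the control range, so the label was not borne out by this transcript in replicates 4 and 5. A count per gene also includes exons outside the floxed part. The group is called Glut1-KO-labelled for this reason. Values for its female and male libraries are given apart for every member and for some other genes. Epithelial genes were abundant in all 10 libraries, with 25288 to 67966 CPM summed over 9 genes (Sftpc and Epcam among them) in controls and 45859.9 to 61291 CPM in Glut1-KO-labelled libraries. Leukocyte genes were low, with 18.4 to 42.1 CPM summed over 6 genes in controls and 22.8 to 61.2 CPM in the other group.

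The promoters of 5 members are shown, chosen as follows. Pfkfb2, Pfkfb3 and Pfkfb4 make up the family whose summed level separated the groups after TMM scaling, though not with library totals. Pfkp and Hk2 had the largest positive and the largest negative log2 fold change among the members in the fit over all 10 libraries. Each run holds 300 bases, from 250 before the start site to 50 after it, as given by RefSeq on build GRCm38.p6, written from 5′ to 3′ on the strand of the gene, and is the entry nearest to the 5′ end of the gene's principal transcript. Capitals mark ACGTG or GCGTG on either strand, where the other strand reads CACGT or CACGC, and a CACGTG holds ACGTG on both strands and counts as 2 matches.
Hk2, chr6:82774405-82774704, minus strand: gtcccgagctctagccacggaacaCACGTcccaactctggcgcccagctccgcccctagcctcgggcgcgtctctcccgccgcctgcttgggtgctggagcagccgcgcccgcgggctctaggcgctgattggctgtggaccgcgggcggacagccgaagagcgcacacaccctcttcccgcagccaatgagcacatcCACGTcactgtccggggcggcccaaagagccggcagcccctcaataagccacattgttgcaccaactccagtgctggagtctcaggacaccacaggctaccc
Pfkp, chr13:6648722-6649021, minus strand: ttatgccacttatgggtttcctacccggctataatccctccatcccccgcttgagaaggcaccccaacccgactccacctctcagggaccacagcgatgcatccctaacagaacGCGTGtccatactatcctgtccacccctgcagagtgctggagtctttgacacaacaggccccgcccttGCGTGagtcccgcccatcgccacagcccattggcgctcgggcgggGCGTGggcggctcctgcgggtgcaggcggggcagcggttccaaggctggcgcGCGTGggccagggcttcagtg
Pfkfb2, chr1:130715772-130716071, minus strand: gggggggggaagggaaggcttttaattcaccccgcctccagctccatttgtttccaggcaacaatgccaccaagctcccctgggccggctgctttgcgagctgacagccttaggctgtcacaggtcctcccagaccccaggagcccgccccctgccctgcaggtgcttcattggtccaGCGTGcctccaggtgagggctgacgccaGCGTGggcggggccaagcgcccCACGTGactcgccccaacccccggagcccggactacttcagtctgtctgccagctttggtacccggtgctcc
Pfkfb3, chr2:11502041-11502340, minus strand: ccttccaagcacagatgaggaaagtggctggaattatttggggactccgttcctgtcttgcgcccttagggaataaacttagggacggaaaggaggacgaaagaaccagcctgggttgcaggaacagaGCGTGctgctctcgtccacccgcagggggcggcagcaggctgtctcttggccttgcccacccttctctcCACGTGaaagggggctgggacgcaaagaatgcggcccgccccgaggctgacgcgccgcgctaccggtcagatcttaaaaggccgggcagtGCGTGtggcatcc
Pfkfb4, chr9:108991652-108991951, plus strand: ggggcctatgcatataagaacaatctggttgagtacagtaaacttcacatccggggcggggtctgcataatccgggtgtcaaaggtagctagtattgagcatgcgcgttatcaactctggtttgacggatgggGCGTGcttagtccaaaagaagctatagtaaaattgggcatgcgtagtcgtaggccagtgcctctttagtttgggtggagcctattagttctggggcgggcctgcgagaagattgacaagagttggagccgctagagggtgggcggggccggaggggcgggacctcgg

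Pfkp, Pfkfb2 and Pfkfb3 had 4 matches each in these windows, Hk2 had 2 and Pfkfb4 had 1. Among all 32851 RefSeq promoters of this length, 19.6% held ACGTG, 32.4% held GCGTG, 43.8% held either and 8.9% held 3 or more matches. These percentages are not matched for base composition. The median share of G and C bases was 52.7% over all promoters and 57.3% over the 17 entries of the members. In the windows shown it was 67.3% for Hk2, 64.7% for Pfkp, 66.0% for Pfkfb2, 61.0% for Pfkfb3 and 54.3% for Pfkfb4. For the other members, the entry nearest to the principal transcript had 2 matches in Pfkm, 1 in Hkdc1, 1 in Pfkl, and 0 in Hk1 and Gpi1. Other entries, for other start sites of the same gene, differed in their counts of matches. They were 5 in Hk1, 1 and 1 in Pfkfb2, 1 in Pfkfb3, and 3, 1 and 0 in Pfkm. The matches are letters in a window and no measure of binding.

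Per length of transcript, the isomerase gene was the most abundant member and Hkdc1 the least. Gpi1 averaged 186 ± 30.3 CPM per kb (SD, n = 10 libraries), followed by Pfkl with 76.1 ± 22.4, Hk1 with 44.0 ± 14.2, Pfkfb2 with 33.9 ± 7.71, Hk2 with 25.4 ± 5.23, Pfkp with 20.0 ± 6.82, Pfkm with 15.96 ± 3.23, Pfkfb4 with 13.9 ± 2.74, Pfkfb3 with 12.4 ± 1.74 and Hkdc1 with 8.62 ± 3.44 CPM per kb. Gpi1 was above Pfkl and Pfkl above Hk1 in 10 of 10 libraries, and the ranges of Gpi1 and Pfkl over libraries did not overlap. All later neighbours in this order had overlapping ranges. Hk1 was above Pfkfb2 in 7 libraries, Pfkfb2 above Hk2 in 8, Hk2 above Pfkp in 7, Pfkp above Pfkm in 6, Pfkm above Pfkfb4 in 5, Pfkfb4 above Pfkfb3 in 7 and Pfkfb3 above Hkdc1 in 9, so the order of the means did not hold in every library for any of these pairs. Lengths were those of the longest principal transcript in GENCODE. Merged exons, which some retained-intron transcripts lengthen (Pfkp 13401 against 4145 bases), kept Gpi1 and Pfkl in the leading places and Hkdc1 in the last, but moved Hk1 to rank 5 and Pfkp to rank 9.

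**Figure D1:**
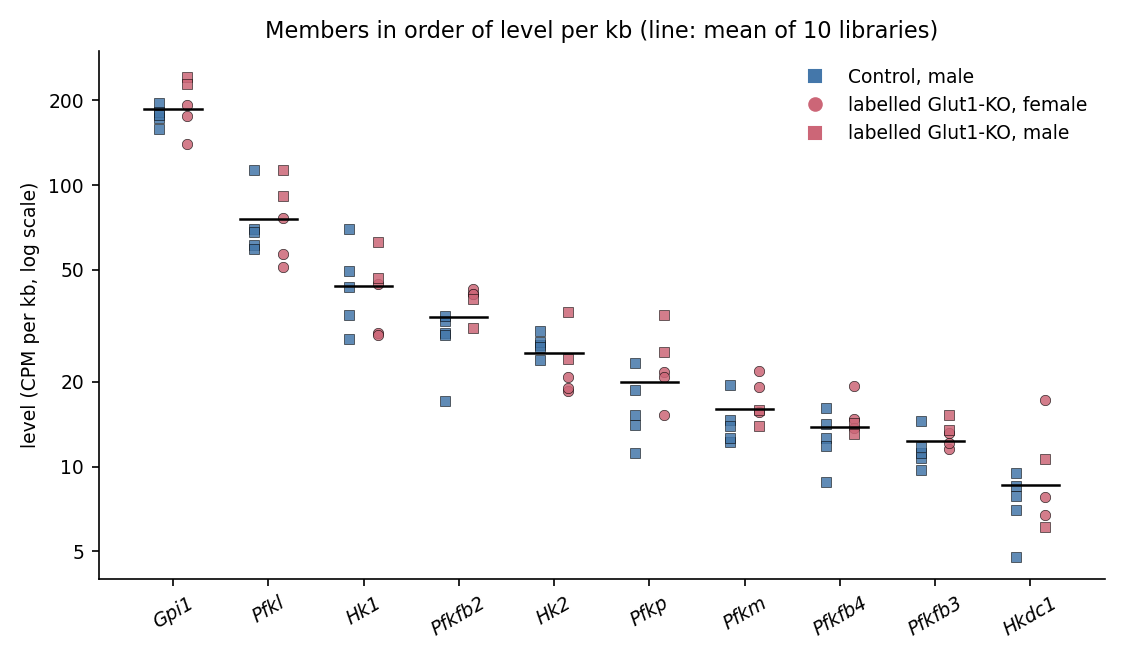
Level of each member in CPM per kb of transcript on a log axis, 1 point per library, with controls left and Glut1-KO-labelled libraries right, circles for females and a line at the mean of 10 libraries. Gpi1 leads with a mean of 186 CPM per kb and Hkdc1 is last with 8.62, and points of neighbouring genes overlap from Pfkl downward.

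To ask whether tumours labelled Glut1-KO used another set of these enzymes, each member was compared between the groups. With limma on voom values, 0 of the 10 members passed an adjusted p of 0.05, where 0 of the 15922 genes tested passed (0%). At an unadjusted p under 0.05, 1 member, Pfkfb2, was higher and 0 were lower, against 7.68% of all genes tested in either direction and 3.66% in the higher direction. The edgeR quasi-likelihood test also called 0 members and 0% of all genes. At an unadjusted p under 0.05 it had 1 member, Pfkfb2, against 8.85% of all genes. DESeq2 called 0 members, where it called 210 genes in all (1.32%), and it had 2 members at an unadjusted p under 0.05, Pfkfb2 and Pfkp, against 10.8% of all genes. The members under this unadjusted limit changed with the sex of the libraries. With sex as a covariate they were Gpi1 and Pfkp, both higher, and no longer Pfkfb2 (limma unadjusted p 0.207), against 11.1% of all genes. That fit rests on the 2 male Glut1-KO-labelled libraries, since all controls were male, and with male libraries only the same 2 members were under the limit (9.51% of all genes). With the 3 female libraries against the controls they were Hk2, lower, and Pfkfb2, higher (13.9% of all genes). In these 3 fits, in the order given, 0 members passed the adjusted threshold, where 0.0188%, 0.00628% and 0.044% of all genes did. The log2 fold changes of the members had a median of 0.22, with 8 above 0 and 2 below, beside a median of -0.005 over all genes tested. All members were above 0 with male libraries only. Hk1, Hk2, Gpi1 and Pfkl were below 0 with the 3 females against the controls, and the other members above. For none of the members were the control and Glut1-KO ranges apart, and 1.85% of all genes tested had ranges that were. On simulated counts of the same design and number of genes, 35% of 2-fold and 71.3% of 4-fold changes were recovered, so changes of the size fitted here could be missed.

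**Figure D2:**
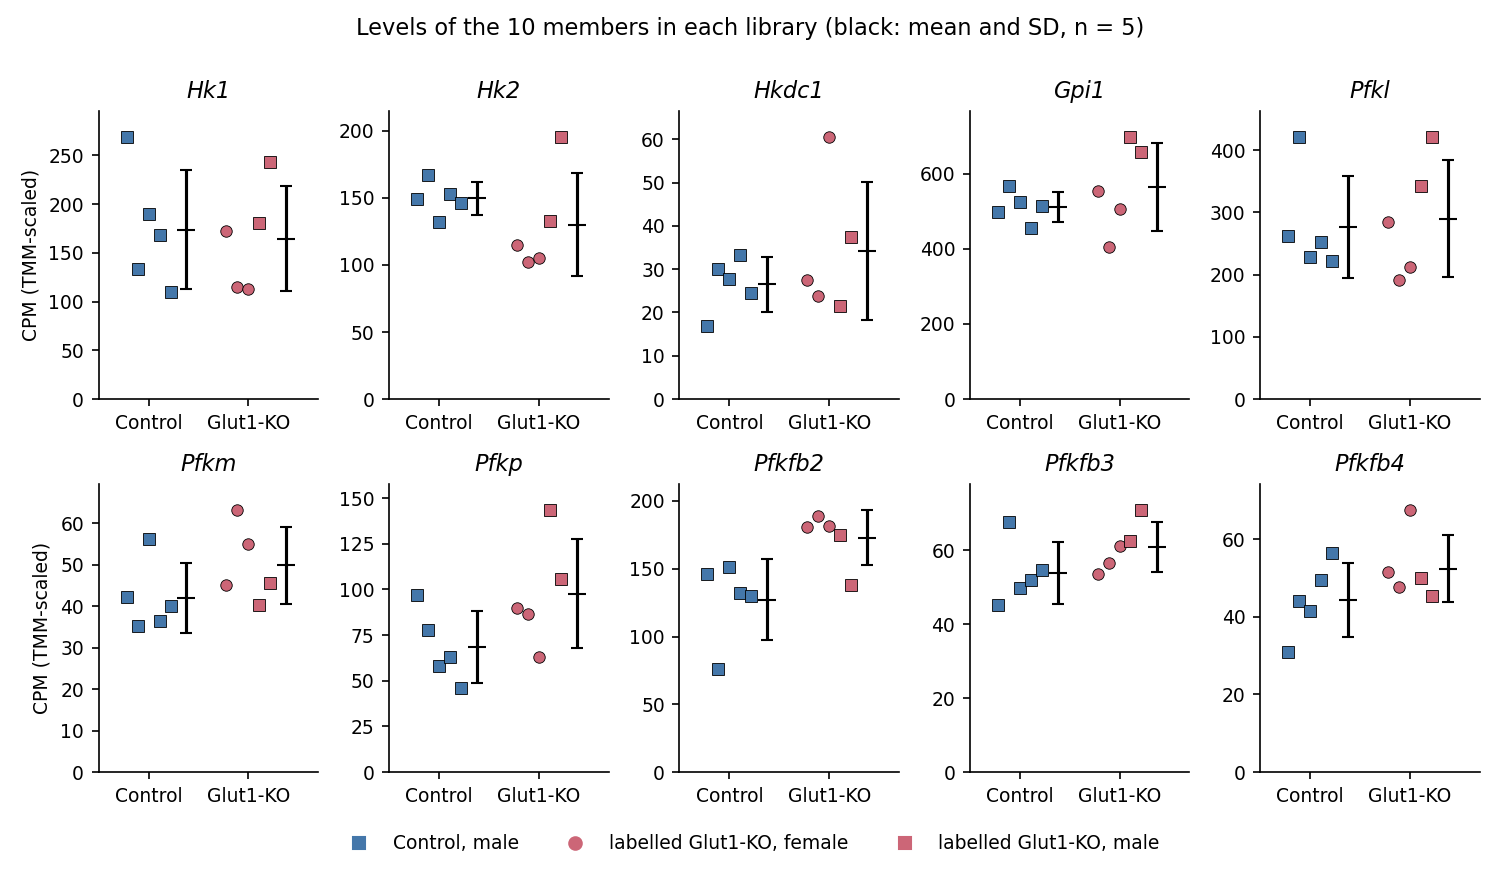
TMM-scaled CPM of each member in every library, with controls in blue and Glut1-KO-labelled libraries in red, squares for males, circles for females, and black bars for mean and SD (n = 5). Pfkfb2 has 4 of 5 red points above all blue ones, and for Hk2 the 3 red circles lie below all blue squares.

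Among the hexokinases, none passed the test and the direction of Hk1 and Hk2 differed between female and male libraries. Hk1, the broadly expressed enzyme that binds mitochondria (chromosome 10, 62268855 to 62379908, minus strand, GRCm38), had 269, 133, 190.2, 168 and 109.8 CPM in control replicates 1 to 5. In Glut1-KO replicates 1 to 5 it had 172, 115, 113, 181 and 243 CPM. Every value of the second group lay within the control range. The means were 174 ± 61.4 and 165 ± 53.7 CPM (SD, n = 5 each), and the log2 fold change was -0.07 (SE 0.27, limma adjusted p 0.964). It was -0.34 for the 3 females against the controls and 0.33 for the 2 males.

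Hk2 encodes the inducible hexokinase, which also binds mitochondria and, unlike Hk1, is active in both lobes of the protein (chromosome 6, 82725025 to 82774454, minus strand). Its levels were 149, 167, 132, 153 and 147 CPM in control replicates 1 to 5 and 115, 102, 105, 132 and 195 CPM in Glut1-KO replicates 1 to 5. The 3 female libraries were below all controls, replicate 4 was near the lowest control and replicate 5 was above every control. Over the whole groups, means of 149.6 ± 12.6 and 130.0 ± 38.4 CPM gave a log2 fold change of -0.24 (SE 0.17, limma adjusted p 0.768). With the 3 female libraries alone against the 5 controls, the fitted value was -0.47 (limma adjusted p 0.198), and an exact 2-sided permutation test of the log2 CPM gave 0.0179, the smallest p that 56 assignments allow, which 5.49% of all genes tested reached. With the 2 male libraries alone it was 0.11 (limma adjusted p 0.862). No female control was sequenced, so sex, genotype and the level of Slc2a1 cannot be told apart here.

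Hkdc1, a later-described hexokinase with a gene beside Hk1 (chromosome 10, 62383137 to 62422491, minus strand), was the least abundant of the 3. Controls had 16.8, 30.1, 27.8, 33.4 and 24.6 CPM and Glut1-KO-labelled libraries 27.4, 23.7, 60.5, 21.6 and 37.3 CPM. Replicate 3 of the latter stood alone at 60.5 CPM. The log2 fold change of 0.30 (SE 0.29, limma adjusted p 0.823) fell to 0.07 without that library. It was 0.40 for the 3 females against the controls (limma adjusted p 0.592) and 0.16 for the 2 males (limma adjusted p 0.889).

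Gpi1, the isomerase between both kinase steps (chromosome 7, 34201330 to 34230336, minus strand), had 498, 566, 525, 455 and 514 CPM in controls and 555, 404, 507, 697 and 658 CPM in Glut1-KO-labelled libraries. Both male libraries of the latter group exceeded every control, and the 3 female ones did not. Means were 511 ± 40.2 and 564 ± 118 CPM (SD, n = 5 each), and their log2 fold change was 0.12 (SE 0.15, limma adjusted p 0.868). It was -0.07 for the 3 females against the controls. For the 2 males it was 0.41 (limma adjusted p 0.45), and the exact 2-sided permutation test gave 0.0476, the smallest p that 21 assignments allow, which 10.4% of all genes tested reached.

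None of the 3 genes of phosphofructokinase 1 passed the test. Their log2 fold changes were above 0 over all libraries, but that of Pfkl was near 0 and differed in direction between the sexes. Pfkl, the liver-type subunit (chromosome 10, 77986947 to 78010083, minus strand), ranged from 222 to 421 CPM in controls, with a median of 253, and from 191 to 421 CPM in Glut1-KO-labelled libraries, with a median of 284. The highest value of each group, in control replicate 2 and Glut1-KO replicate 5, was 421 CPM. The log2 fold change was 0.05 (SE 0.24, limma adjusted p 0.974). It was 0.50 for the 2 males against the controls (limma adjusted p 0.579) and -0.24 for the 3 females (limma adjusted p 0.635), and it fell below 0 without control replicate 3 or 5 or without Glut1-KO replicate 4 or 5 (-0.084 to -0.006).

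Pfkm, the muscle-type subunit (chromosome 15, 98092589 to 98132451, plus strand), had 42.1, 35.2, 56.3, 36.5 and 40.1 CPM in controls and 45.1, 63.2, 55.1, 40.2 and 45.7 CPM in Glut1-KO-labelled libraries. The groups overlapped, and only replicate 2 of the second group exceeded all controls. It differed by 0.26 on the log2 scale (SE 0.16, limma adjusted p 0.745), by 0.39 for the 3 females against the controls (limma adjusted p 0.382) and by 0.06 for the 2 males (limma adjusted p 0.945). Muscle genes were low in all libraries. Their sum over 6 genes was 25.03 to 65.97 CPM in controls and 22.2 to 81.9 CPM in the other group. Actn2 was at 0 in 6 libraries and Ckm in 1. Acta2 was the largest part in every library but control replicate 3 (11.6 to 77.1 CPM over all libraries). There Tnnt2 led with 28.3 CPM, against at most 8.43 CPM in any other library. That library also had the highest Pfkm of the controls, and the highest Myh11 (3.24 CPM) and Actn2 (0.247 CPM) of all libraries. Glut1-KO replicate 2, where Pfkm was highest, had no such level of Tnnt2. The part of muscle cells in the level of Pfkm was not tested.

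Pfkp, the platelet-type subunit (chromosome 13, 6579768 to 6648777, minus strand), had the largest log2 fold change of the members in the fit over all 10 libraries. Its levels were 96.8, 77.8, 58.2, 63.2 and 46.2 CPM in control replicates 1 to 5 and 89.6, 86.5, 63.3, 143 and 106 CPM in Glut1-KO replicates 1 to 5. Both male Glut1-KO-labelled libraries exceeded every control, and the 3 females lay within the control range. Means of 68.5 ± 19.5 and 97.7 ± 29.7 CPM (SD, n = 5 each) gave a log2 fold change of 0.50 (SE 0.24, 95% interval -0.02 to 1.03), with a limma adjusted p of 0.667 and an exact 2-sided permutation p of 0.0873. The fitted value was 0.89 for the 2 males against the 5 controls (limma adjusted p 0.446) and 0.25 for the 3 females (limma adjusted p 0.644). In the males the exact 2-sided permutation p was again 0.0476, the smallest possible, and in the females it was 0.375. Pfkfb2 had a larger fitted value than Pfkp in the females (0.58). It also did without some single libraries, such as Glut1-KO replicate 4 (0.47 against 0.35 for Pfkp). Pfkp shares 748 exon bases with Pitrm1 (1884 to 4765 counts) on the opposite strand. Whether counting used strand is not given in the sources used here. The count of Pfkp may therefore hold reads of Pitrm1 or lack some of its own. Gpi1 likewise shares 741 exon bases with Gm26762 on the opposite strand (1 to 19 counts), and Pfkm shares 341 with Gm26513 on its own strand (4 to 34 counts).

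All 3 PFKFB genes had a positive log2 fold change, and none passed the test. Pfkfb2, the isoform known from heart and kidney, whose kinase is switched on by phosphorylation (chromosome 1, 130689182 to 130729253, minus strand), had 146, 76.0, 151, 132 and 129.9 CPM in control replicates 1 to 5. In Glut1-KO replicates 1 to 5 it had 181, 189, 182, 175 and 138 CPM. All but replicate 5 were above the highest control, and control replicate 2 was far below the other controls. Means of 127 ± 29.9 and 173 ± 20.3 CPM gave a log2 fold change of 0.47 (SE 0.19, 95% interval 0.07 to 0.88), with a limma unadjusted p of 0.0263 and adjusted p of 0.599. An exact 2-sided permutation test over all assignments of libraries to 5 and 5 gave 0.0238. Without control replicate 2 the log2 fold change fell to 0.30. The value was 0.58 for the females alone (limma adjusted p 0.308, exact 2-sided permutation p 0.0357) and 0.33 for the males alone (limma adjusted p 0.724, exact p 0.381). Pfkfb2 shares 1262 exon bases with the gene model Gm29427 on the same strand, which has no row in the count table, so reads of both cannot be told apart by strand. It also shares 154 with Yod1 on the opposite strand (382 to 1231 counts).

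Pfkfb3, the isoform with the highest kinase to phosphatase ratio (chromosome 2, 11471433 to 11554077, minus strand), had 45.2, 67.4, 49.7, 51.8 and 54.5 CPM in controls and 53.4, 56.4, 61.0, 62.5 and 70.8 CPM in Glut1-KO-labelled libraries. Control replicate 2 stood above the other 4 controls and above 4 of the 5 libraries of the other group. The log2 fold change was 0.18 (SE 0.13, limma adjusted p 0.768). It was 0.32 for the 2 males against the controls (limma adjusted p 0.594) and 0.10 for the 3 females (limma adjusted p 0.787).

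Pfkfb4, the testis-type isoform that is also made in many tumours (chromosome 9, 108991778 to 109032228, plus strand), had 30.8, 43.9, 41.4, 49.4 and 56.3 CPM in controls and 51.4, 47.7, 67.4, 49.995 and 45.4 CPM in Glut1-KO-labelled libraries. A single library of the latter, replicate 3, exceeded all controls. Its log2 fold change was 0.25 (SE 0.17, limma adjusted p 0.756), with 0.34 for the 3 females against the controls (limma adjusted p 0.467) and 0.13 for the 2 males (limma adjusted p 0.879).

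**Figure D3:**
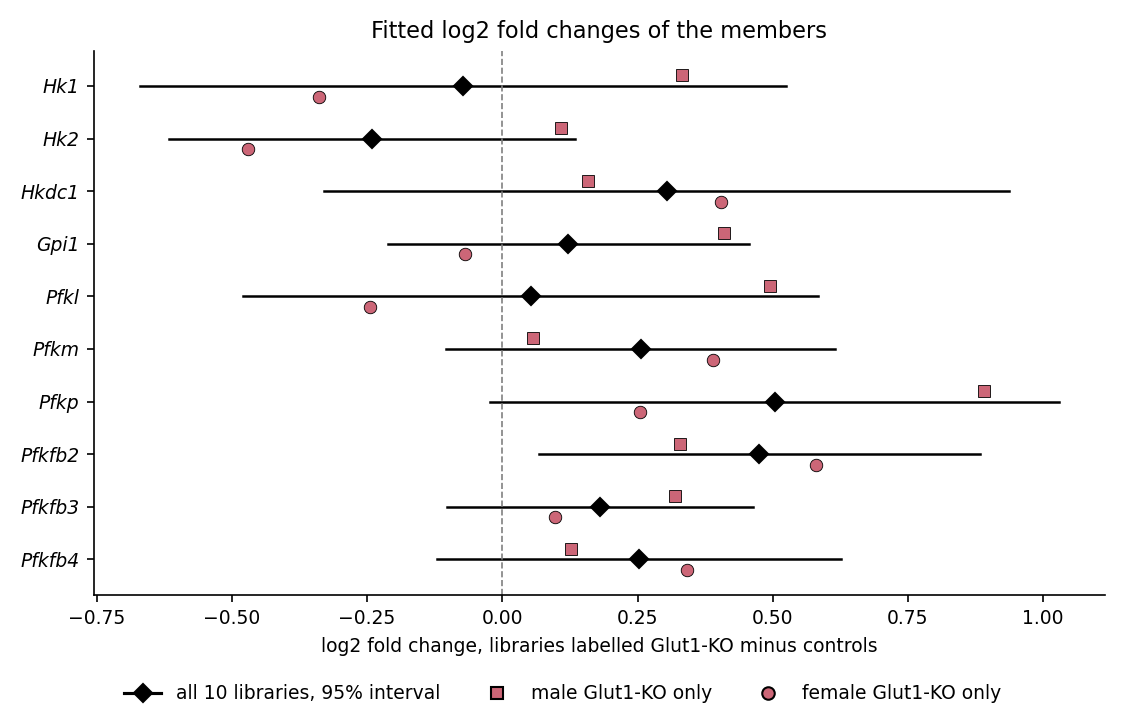
Log2 fold change of each member, Glut1-KO-labelled libraries minus controls, with 95% intervals from limma over all 10 libraries (black) and the fitted values when only the 2 male (squares) or only the 3 female (circles) Glut1-KO-labelled libraries are set against the 5 controls. The interval of Pfkfb2, 0.07 to 0.88, is the 1 interval that leaves out 0, and for Hk1, Hk2, Gpi1 and Pfkl the squares and circles fall on opposite sides of 0.

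The sum of the 3 PFKFB genes was 51.6, 44.3, 56.8, 55.2 and 57.3 CPM per kb in control replicates 1 to 5 and 67.1, 68.6, 73.6, 67.3 and 59.4 CPM per kb in Glut1-KO replicates 1 to 5. On this scale the groups did not overlap, with means of 53.0 ± 5.36 and 67.2 ± 5.08 CPM per kb (SD, n = 5 each) and a ratio of means of 1.27. Pfkfb2 made up most of the sum in every library but control replicate 2. The separation was narrow and held on merged exon lengths and without a length, but with library totals in place of TMM scaling the groups overlapped (48.0 to 59.2 CPM per kb in controls, 58.8 to 74.2 in the other group). The sum was formed with these values known, and no test is given for it. The hexokinase sum was 62.1 to 102 CPM per kb in controls and 55.2 to 109 in Glut1-KO-labelled libraries, and the phosphofructokinase 1 sum 84.6 to 144 and 91.3 to 154, so both overlapped between the groups.

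**Figure D4:**
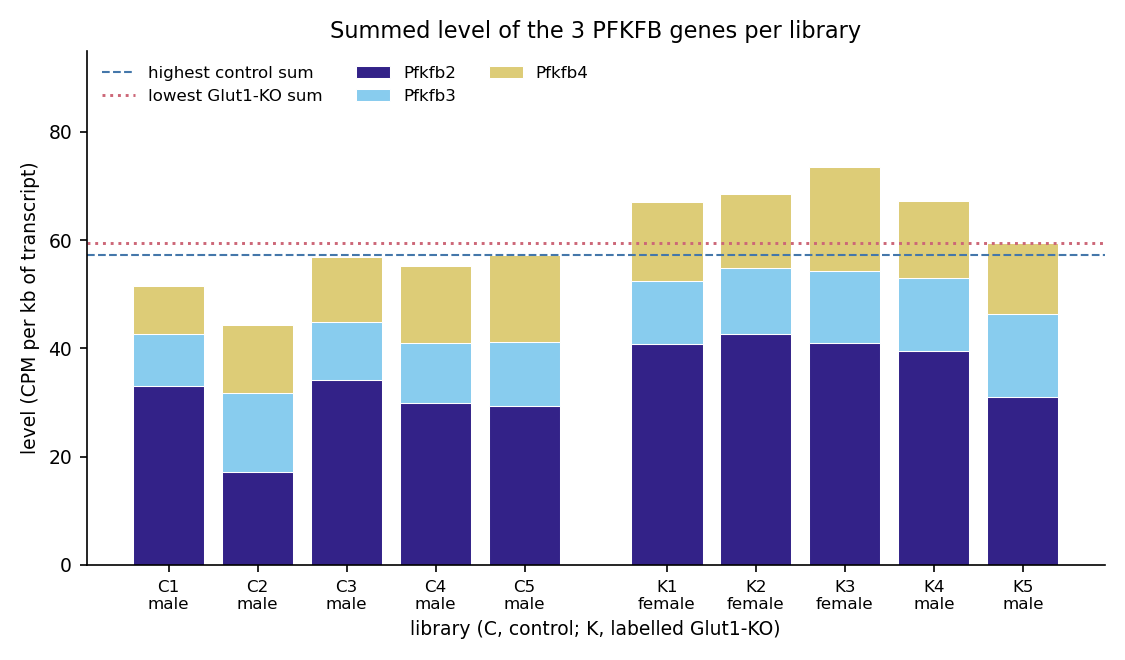
Level of Pfkfb2, Pfkfb3 and Pfkfb4 stacked per library, in CPM per kb of transcript, with the sex of each library under its name. The dashed line marks the highest control sum, 57.3, and the dotted line the lowest sum among Glut1-KO-labelled libraries, 59.4.

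Isoform shares were then taken within each family, as the part of a family's summed CPM per kb that came from a gene. Pfkl led phosphofructokinase 1 and Pfkfb2 the PFKFB genes in 10 of 10 libraries, also per kb of merged exons and without a length. The leading hexokinase depended on the length used. Hk1 led in 10 of 10 libraries per kb of principal transcript and in 8 without a length, but Hk2 led in 7 of 10 per kb of merged exons (3 controls and 4 Glut1-KO-labelled libraries). The shares that follow use principal transcripts. In controls, Hk1 made up 55.3% ± 9.57, Hk2 34.9% ± 7.10 and Hkdc1 9.81% ± 2.97 of the hexokinase level (SD, n = 5). In Glut1-KO-labelled libraries the shares were 55.7% ± 6.76, 30.9% ± 2.17 and 13.4% ± 7.36 (SD, n = 5). The Hk2 share ran from 26.6% to 42.8% in controls and from 28.4% to 33.5% in the other group, so its difference of -3.96 percentage points lay within the spread of the controls.

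Pfkl made up 69.8% ± 5.65 of the phosphofructokinase 1 level in controls and 64.5% ± 6.85 in Glut1-KO-labelled libraries, while Pfkm made up 14.5% ± 4.46 and 15.7% ± 6.16 (SD, n = 5 each). The difference in Pfkl share, -5.33 percentage points, was -8.51 for the 3 females against the controls (exact 2-sided permutation p 0.107) and -0.559 for the 2 males (exact p 1). The Pfkp share was 21.6%, 13.05%, 14.8%, 15.9% and 13.2% in control replicates 1 to 5 and 19.0%, 22.2%, 16.7%, 24.7% and 16.5% in Glut1-KO replicates 1 to 5. Control replicate 1 had the third highest share of all 10 libraries, and the other 4 controls were below all 5 libraries of the other group. The difference was 4.12 percentage points (SE 2.23) and the exact 2-sided permutation test gave 0.0952. It was 2.41 percentage points on merged exon lengths (exact p 0.111). Without control replicate 1 it was 5.599 percentage points, with an exact p of 0.0238. Without each of the other 9 libraries in turn it was 2.92 to 4.95 percentage points, with exact p-values from 0.0873 to 0.206.

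Within the PFKFB family, Pfkfb2 took 53.6% ± 9.71 in controls and 58.0% ± 4.00 in Glut1-KO-labelled libraries, Pfkfb3 22.3% ± 5.94 and 19.7% ± 3.52, and Pfkfb4 24.1% ± 4.91 and 22.3% ± 2.38 (SD, n = 5 each). Pfkfb4 was the smallest part in 3 libraries and Pfkfb3 in the other 7, and control replicate 2 had the lowest Pfkfb2 share, 38.8%, and the highest Pfkfb3 share, 32.8%. Of the 9 shares compared, none reached an exact 2-sided permutation p of 0.05 over the assignments to 5 and 5, where 0.00794 is the smallest p possible, and the smallest was that of Pfkp. Each share rested on 8772 to 28766 counts per family and library, and the widest 95% Wilson interval of a count share was 2.03 percentage points wide, which covers counting error only and is smaller than the SD between libraries for 9 of 9 shares.

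**Figure D5:**
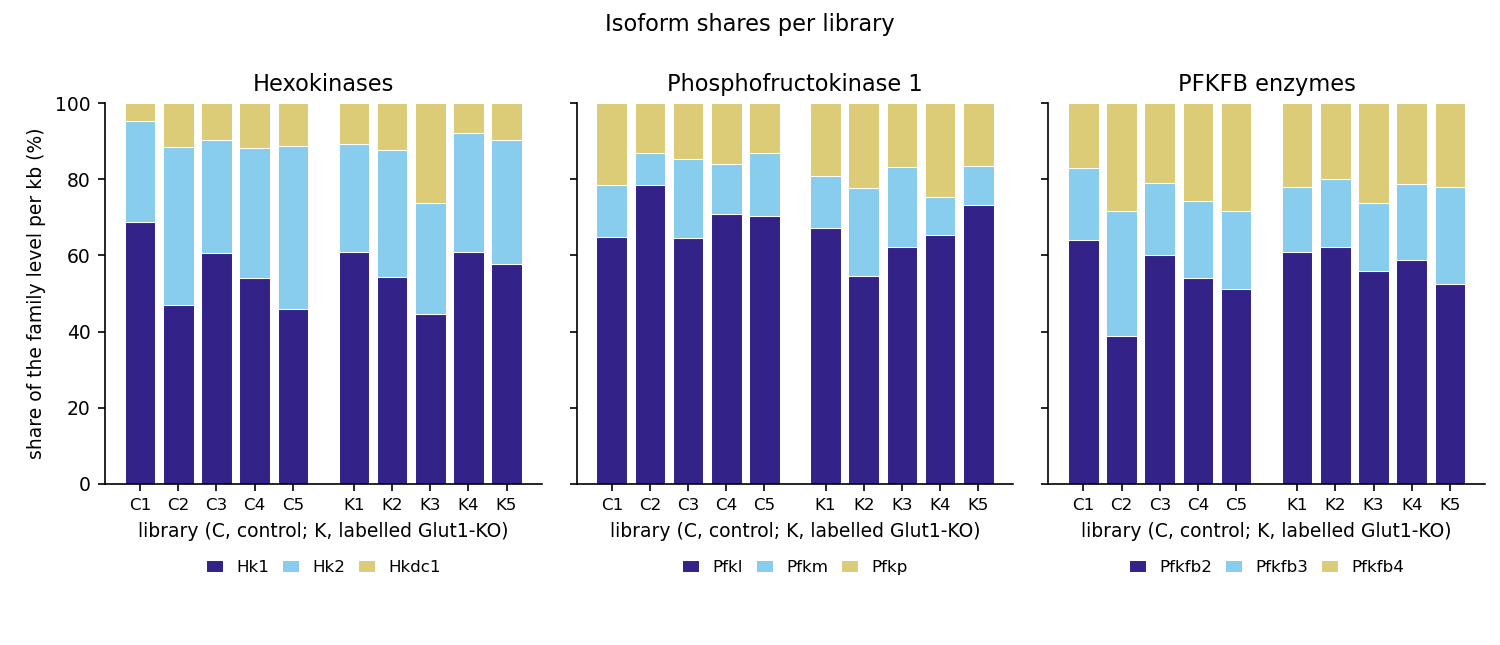
Share of each isoform in the summed CPM per kb of its family (percent), 1 bar per library, for controls (C1 to C5) and Glut1-KO-labelled libraries (K1 to K5). At these principal transcript lengths Hk1, Pfkl and Pfkfb2 are the largest parts of every bar, K3 has the largest Hkdc1 share (26.2%) and C2 the largest Pfkfb3 share (32.8%).

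Within the group labelled Glut1-KO, both male libraries were above all 3 female ones for 6 members (Hk1, Hk2, Gpi1, Pfkl, Pfkp and Pfkfb3) and below them for 1 (Pfkfb2), while the sexes overlapped for Hkdc1, Pfkm and Pfkfb4. Such a split was common, since 40.8% of all genes tested had male and female Glut1-KO libraries that did not overlap. The same 2 male libraries had Slc2a1 inside the control range and the highest sums of 15 genes of lower glycolysis, 8419 and 8443 CPM, against 3208 to 5558 CPM in the females and 4315 to 5859 CPM in controls. They also shared a name number. Several of these genes, such as Gapdh, are known to have processed pseudogenes, and how their reads were divided was not tested. Which of these features goes with the levels of the members was not tested.

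Some members had like patterns over the 10 libraries, given here as a description without a test. Gpi1 and Pfkl had a Pearson r of 0.79 of log2 CPM (Spearman rho 0.78, and r 0.76 without the 2 libraries furthest from the median of Gpi1). Hk2 and Pfkfb2 ran opposite to each other, with r of -0.70 and rho of -0.87 (r -0.82 without the 2 furthest for Hk2). Hkdc1 and Pfkfb4 had an r of 0.69 that turned to -0.39 without the 2 furthest libraries, so it rested on those. The tested genes most like Hk2 were Vps37b, which encodes an ESCRT-I sorting subunit (r 0.97), the processed pseudogene Gm13050 (r 0.95) and Utp14a, a ribosome biogenesis gene (r 0.95). Those most like Pfkp were Gm8756 (r 0.95), Gm12017 (r 0.93) and Gm10101 (r 0.92), 2 processed pseudogenes and 1 non-coding gene whose highest level in any library was 2.09 CPM. For Pfkfb3 they were the amino acid transporter gene Slc38a1 (r 0.94), the polyadenylation gene Cpsf1 (r 0.94) and Rpusd3, a mitochondrial pseudouridine synthase gene (r 0.93). The 10 libraries differed in depth, group and sex, and each correlation runs over all of these differences at once.

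The genes around the members were described from lists, in which 0 of 37 tested genes passed the limma test and 0 passed with edgeR or DESeq2. At an unadjusted p under 0.05 there were 2 with limma, Fbp1 (higher) and Ddit4 (lower), against 7.68% of all genes, the same 2 with edgeR (8.85%) and 5 with DESeq2 (10.8%). With male libraries only, 10 of the 37 were under that limit, against 9.51% of all genes, and all 10 were higher in the 2 Glut1-KO-labelled libraries. They were Aldoa, Gapdh, Pgk1, Pgam1, Tpi1, Pkm and Ldha of lower glycolysis, the hypoxia targets Bnip3 and Ndrg1, and Fbp1. With sex as a covariate there were 11, all higher (11.1% of all genes), which held Pdk1 and Ero1l in place of Fbp1. Ddit4 was in neither. With the 3 female libraries against the controls there were 8 (13.9% of all genes). Fbp1, Ldhb, Pgam2 and Vegfa were higher, and Slc2a1, Ddit4, Pkm and Tigar (9630033F20Rik in the count table) were lower. Pkm, the pyruvate kinase gene, was at -0.73 in that fit and at 0.70 with male libraries only. In each of these fits 0 of the 37 passed the adjusted threshold. Their median log2 fold change was 0.14. Hk3, a hexokinase gene outside the members, averaged 0.418 ± 0.309 CPM in controls and 0.510 ± 0.128 CPM in Glut1-KO-labelled libraries. Pfkfb1, the liver-type isoform, was at 1.39 ± 0.307 and 1.21 ± 0.324 CPM (SD, n = 5 each), and its log2 fold change was -0.22 (SE 0.27, limma adjusted p 0.865).

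Of the 2 transporter genes upstream, Slc2a1 had a log2 fold change of -0.62 (SE 0.29, limma adjusted p 0.658), which was -1.07 for the 3 females against the controls (limma adjusted p 0.144) and 0.06 for the 2 males (limma adjusted p 0.938). Slc2a3, the gene of the high-affinity transporter Glut3, had 131, 232, 309.6, 102 and 177 CPM in controls and 407, 680.4, 171, 232 and 249.7 CPM in Glut1-KO-labelled libraries. Replicates 1 and 2 of the latter were above all controls and the other 3 within their range. It differed by 0.80 on the log2 scale (SE 0.39, limma adjusted p 0.677), by 1.05 for the 3 females against the controls (limma adjusted p 0.375) and by 0.45 for the 2 males (limma adjusted p 0.743).

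Of 14 tested genes of lower glycolysis, 10 had a positive and 4 a negative log2 fold change, with a median of 0.16. With male libraries only, 12 were positive and 2 negative, and with the 3 females against the controls 5 were positive and 9 negative. Those with the smallest p were the enolase genes Eno2 at 0.69 (SE 0.33, limma adjusted p 0.668) and Eno3 at -0.54 (SE 0.30, limma adjusted p 0.710). Among the opposing and regulating genes, Fbp1, a fructose bisphosphatase of gluconeogenesis, had 1.04, 1.28, 3.68, 1.63 and 1.11 CPM in controls and 3.80, 2.59, 15.9, 3.13 and 4.37 CPM in Glut1-KO-labelled libraries. Its group ranges overlapped through control replicate 3, and the log2 fold change of 1.61 (SE 0.54) had a limma adjusted p of 0.520. G6pc3, a broadly expressed glucose 6-phosphatase gene, was at -0.19 (SE 0.11, limma adjusted p 0.730).

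The voltage-dependent anion channels, to which hexokinases dock on the mitochondrial surface, did not pass the test. On the log2 scale, Vdac1 was at -0.12 (SE 0.12, limma adjusted p 0.827) and Vdac3 at 0.25 (SE 0.25, limma adjusted p 0.830). The direction of Vdac1 differed by sex, at 0.07 with male libraries only and -0.24 with the 3 females against the controls. Vdac3 was at 0.45 and 0.13 in these fits. Of 12 hypoxia targets outside the members, 8 had a positive log2 fold change and 4 a negative one, with a median of 0.14. These counts were 11 and 1 with male libraries only, and 4 and 8 with the 3 females against the controls. Ddit4, a stress-induced inhibitor of mTORC1 signalling, had 132, 117, 93.5, 89.3 and 79.5 CPM in controls and 66.1, 61.3, 51.0, 79.8 and 96.4 CPM in Glut1-KO-labelled libraries, where the 3 females were below all controls and the 2 males were not. Its log2 fold change was -0.54 (SE 0.19, limma adjusted p 0.555). Pdk1 was at 0.33 (SE 0.17, limma adjusted p 0.687).

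Markers of other cells did not pass the limma test in any list, and the summed ranges of the leukocyte, myeloid, endothelial, fibroblast, club and ciliated lists overlapped between the groups. All 6 leukocyte genes had a positive log2 fold change. Ptprc, the gene of CD45, was at 2.76 ± 0.451 CPM in controls and 7.92 ± 2.19 CPM in Glut1-KO-labelled libraries (SD, n = 5 each). Its ranges did not overlap, and its limma adjusted p was 0.230. The ranges of Coro1a (1.11 ± 0.167 and 2.30 ± 0.699 CPM) and Laptm5 (3.73 ± 0.990 and 7.21 ± 2.14 CPM) did not overlap either (limma adjusted p 0.396 and 0.419). Those of Cd52, Cd53 and Rac2 overlapped, and 1.85% of all genes tested had ranges that were apart. Myeloid genes summed to 985 to 11359 CPM over 8 genes in controls and 1977 to 7907 CPM in the other group. Most of it was Lyz2, which alveolar epithelium also makes and which had a log2 fold change of -0.70. Of 7 tested myeloid genes, 5 had a positive one (5 with male libraries only, 3 with the 3 females). Csf1r was at 4.55 ± 0.832 and 8.73 ± 3.29 CPM (SD, n = 5 each, limma adjusted p 0.484). Adgre1 was at 0.958 ± 0.137 and 1.91 ± 0.961 CPM (limma adjusted p 0.624). For both, and for Marco, 4 of 5 Glut1-KO-labelled libraries exceeded all controls. Marco was at 0 in 2 libraries and was not tested with limma. By sex, the log2 fold change of Csf1r was 1.19 with the 3 females against the controls and 0.39 with male libraries only. That of Adgre1 was 1.25 and 0.24. Over all 10 libraries, Cd68, Itgam and Fcgr3 were at 0.24, 0.14 and 0.09 on the log2 scale and S100a8 was at -0.55. All 5 endothelial genes had a positive log2 fold change (88.1 to 310.4 CPM summed in controls, 134 to 428 in the other group), all 5 fibroblast genes a negative one (83.3 to 352 and 50.6 to 393 CPM), all 4 club cell genes a negative one (1687 to 9634 and 924 to 6579 CPM) and all 4 ciliated cell genes a negative one (9.08 to 201 and 12.7 to 47.9 CPM). These shared directions came from all 10 libraries and did not all hold by sex. Among the fibroblast genes, Col1a1, Col1a2 and Col3a1 were at 0.65, 0.56 and 0.80 with male libraries only and at -0.77, -0.82 and -0.86 with the 3 females against the controls, while Pdgfra was at -1.33 and 0.68. With male libraries only, 1 of 6 leukocyte and 1 of 5 endothelial genes were negative, and with the females 1 of 4 club cell and 1 of 4 ciliated cell genes were positive. All 7 genes of the dissociation stress response had a negative log2 fold change, with sums of 4549 to 5429.5 CPM in controls and 2635 to 4676 CPM in the other group. Atf3 among them was at 310.4 ± 73.7 and 160.1 ± 20.7 CPM (SD, n = 5 each), without overlap (limma adjusted p 0.230). Jun (824 ± 153 and 496 ± 106 CPM, limma adjusted p 0.363) and Dusp1 (387 ± 28.2 and 275 ± 79.3 CPM) did not overlap either. The ranges of Fos, Egr1, Ier2 and Hspa1a overlapped. Dusp1 had a log2 fold change of -0.55 (limma adjusted p 0.556). It was -1.03 with sex as a covariate and then passed (limma adjusted p 0.0422), a fit that rests on the 2 male libraries of that group. With the 3 females against the controls Dusp1 was at -0.21 (limma adjusted p 0.395), and Fos and Egr1 were at 0.03 and 0.04. Proliferation genes summed to 409 CPM in control replicate 2, the highest of all libraries, against 180.1 to 266 CPM in the other controls and 167 to 293 CPM in Glut1-KO-labelled libraries. In bulk libraries, more cells of a type and more RNA per cell cannot be told apart, and the part of these contents in the levels of the members was not tested.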

How the data were processed

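The authors prepared stranded mRNA libraries and sequenced single-end reads. They trimmed these with Cutadapt (1.4.2 in the submitters' processing notes, another version in the study's methods) and aligned them to mm10 with HISAT2. The same notes name featureCounts 1.4.4. The deposited values are raw read counts per gene, not normalized, and a deposited log2 table was not used. Strand use in counting is not given in the sources used here.

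Counts were filtered with filterByExpr (minimum count 10, minimum total 15), scaled by TMM with edgeR 4.0.16, and fitted with voom (0.5 added) and limma 3.58.1 (R 4.3.3) with group as the only term. P-values were adjusted by Benjamini-Hochberg over the 15922 genes tested (threshold 0.05). The edgeR quasi-likelihood test and DESeq2 1.42.0 were alternatives. Exact 2-sided permutation tests (252 assignments) were run on single levels (mean log2 CPM) and shares. Lengths came from GENCODE M21 (GRCm38, as mm10): the longest principal transcript, or the longest transcript where none is marked. Merged exon length was an alternative chosen after seeing the data. In all, 96.61% of genes had a length. The test was tried on simulated data.

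The genes named were all 10 members, of each pathway list those past the threshold and in any case the 2 with the smallest p, Slc2a1, Slc2a3, and the 3 genes most correlated with Hk2, Pfkp and Pfkfb3. Marker genes and overlapping genes are named beside results they touch. Pathway genes under an unadjusted p of 0.05 in the fits by sex fall outside this rule and were named after their values were seen. Members and lists were chosen with earlier results of these data known. Other settings left out libraries, added sex or a block, or changed scaling, filter, length and test.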

Additional observations from a re-analysis of the deposited data

Results flagged for a closer look

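In a screen of 38 groups of 5 values (level and share of each member in each group), 7 had a single library set apart from the other 4, by a gap to the nearest value of over 0.71 of the range. Chance sets apart about 1 in 20 such groups. The 38 groups are not independent, since the shares of a family rest on the same values as its levels. The 7 can therefore not be weighed against that rate. Control replicate 2 accounted for 3 of them, with Pfkl at 421 CPM (the other controls at 222 to 262 CPM), Pfkfb2 at 76.0 CPM (129.9 to 151 CPM) and a Pfkfb3 share of 32.8% (18.9% to 20.5%). Glut1-KO replicate 3 accounted for 2, with Pfkfb4 at 67.4 CPM (45.4 to 51.4 CPM in the other 4) and an Hkdc1 share of 26.2% (7.96% to 12.2%). Glut1-KO replicate 5 had Pfkfb2 at 138 CPM (175 to 189 CPM in the other 4), and control replicate 1 had an Hkdc1 share of 4.70% (9.72% to 11.7%).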

How the results depend on the processing

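No alternative called a member or a gene of the pathway lists past the threshold. The number of all genes called was 0 with limma and 210 with DESeq2, 3 with sex as a covariate, 1 with male libraries only, 7 with female Glut1-KO libraries only, and 0 to 1 when a library was left out (1 without control replicate 3). With 35% of simulated 2-fold changes recovered, a count of 0 says little on changes of that size at this depth and spread. The log2 fold change of Hk1 turned to 0.33 with sex as a covariate and with male libraries only, that of Hk2 to 0.11 in both fits, and with female Glut1-KO libraries only that of Gpi1 turned to -0.069 and that of Pfkl to -0.24. Leaving out a library moved Hk1 between -0.22 and 0.10 and Pfkl between -0.084 and 0.21, and within 1 direction Gpi1 between 0.036 and 0.24, Hk2 between -0.39 and -0.17, Hkdc1 between 0.065 and 0.43, Pfkm between 0.17 and 0.37, Pfkfb2 between 0.30 and 0.56 and Pfkfb4 between 0.13 and 0.35. Shares turned direction for Hk1 (-2.01 percentage points with females only, -0.84 with means per name number), Hkdc1 (-0.97 with males only), Pfkm (-4.34 with males only) and Pfkfb3 (0.58 with males only). Within 1 direction, the share difference moved by over 1.5 times to 4.04 for Hk1, -0.559 for Pfkl and 1.87 for Pfkfb2 with males only, to 6.56 for Hkdc1, -8.51 for Pfkl, 4.90 for Pfkm and -4.69 for Pfkfb3 with females only, to 2.41 for Pfkp and 2.01 for Pfkm on merged exon lengths, to 1.02 for Hk1 as a share of counts and to 2.18 for Pfkm with means per name number. When a library was left out, the difference in share ran from -1.93 to 3.76 percentage points for Hk1, -0.71 to 2.74 for Pfkm, -4.08 to 0.057 for Pfkfb3 and 2.92 to 5.599 for Pfkp, and also -6.03 to -1.98 for Hk2, 0.33 to 4.90 for Hkdc1, -7.50 to -2.83 for Pfkl, 0.64 to 6.95 for Pfkfb2 and -3.52 to -0.70 for Pfkfb4. The cause was not tested. The remaining 196 fold changes and 135 share differences kept their direction and their side of the threshold. Hkdc1 has no value with the filter at 20 TPM, which leaves it out.

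Same-numbered replicates did not deviate together (correlations from -0.13 to 0.20), so they share only a number. The replicate block left 0 genes called and gave 0.48 for Pfkfb2, and it changed no call.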
